A study of Mus musculus with 6 samples.

Results

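Among the genes listed in the bulk RNA-seq table of the mouse prostate, Folh1 (FOLH1 in the table), Dmbt1 (DMBT1), Khdc1a (KHDC1A), Khdc1b (KHDC1B), Khdc1c (KHDC1C) and Gh (GH) were near 0 in every wild-type library and expressed in the libraries of the MYC animal. They were picked by exactly this contrast, 6 of 24908 genes, so their difference between WT and MYC is described here with no test. The choice did not use where each gene lies, nor the order of its levels over the MYC lobes, although that order was known. The values are FPKM, which count sequenced fragments per kilobase of transcript and scale them to the mapped total of the library, so that levels can be set side by side between genes.

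Tissue came from 12-week-old male FVB mice on a purified diet. The MYC mouse was heterozygous for the Hi-MYC transgene, a human c-MYC expressed in prostatic epithelium from the probasin-derived, androgen-responsive ARR2Pb promoter, and the WT mouse was taken from the wild-type littermates. From each animal the anterior (AP), dorsolateral (DLP) and ventral (VP) prostate were dissociated into cells, and RNA from part of each cell suspension gave 1 polyA library per lobe, 6 libraries in all. With 1 mouse per genotype, the transgene and any other difference between the 2 animals cannot be told apart, and in such bulk material a larger number of cells of a type and more RNA per cell cannot be told apart either.

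Folh1 encodes prostate-specific membrane antigen, a cell-surface carboxypeptidase that trims glutamate from folates and from the neuropeptide NAAG and is used as an imaging and therapy target in human prostate cancer. Dmbt1 encodes a large secreted glycoprotein of scavenger receptor cysteine-rich (SRCR) domains that binds bacteria at mucosal surfaces. The Khdc1 genes encode small KH-domain proteins known from oocytes and early embryos, and Gh encodes growth hormone, the hormone of the anterior pituitary that acts through the receptor Ghr.

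The Khdc1 genes are near copies of each other, so their sequences decide how far their values can be read apart. The coding sequences of Khdc1a and Khdc1c are both 501 bases long and have 500 bases in common. The single difference is T416C, counted from 1 at the A of the start codon with the base of Khdc1a first. It is shown in capitals in bases 379 to 453 of both:
Khdc1a: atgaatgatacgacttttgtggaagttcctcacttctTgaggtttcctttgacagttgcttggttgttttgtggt
Khdc1c: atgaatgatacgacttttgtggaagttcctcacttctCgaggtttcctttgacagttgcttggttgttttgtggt

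Khdc1b stands further off, with 407 of 450 aligned coding bases in common with Khdc1a (90.4%). Its first 75 coding bases still differ from those of Khdc1a at 1 base only, the capital in the second line:
Khdc1a: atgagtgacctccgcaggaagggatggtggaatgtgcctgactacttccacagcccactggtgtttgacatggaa
Khdc1b: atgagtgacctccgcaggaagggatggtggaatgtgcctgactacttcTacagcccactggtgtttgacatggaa

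Reads were 75 bases long. Of the 1913 stretches of that length in the Khdc1a transcript, 615 (32.1%) also occur in another Khdc1 transcript, as do 615 of 1872 (32.9%) for Khdc1c and 19 of 2247 (0.846%) for Khdc1b. The split of reads between Khdc1a and Khdc1c is therefore uncertain, whereas Khdc1b is set apart by nearly all of its length. No stretch of Folh1, Dmbt1, Gh or Myc occurred in the transcript of another protein-coding gene. RefSeq also lists the names Khdc1b and Khdc1c as synonyms of each other, and the symbols are used here as the table gives them.

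Folh1 (chr7:86716525-86776053, GRCm38) was 0.0143 FPKM in WT AP, listed at 0 in WT DLP and 0.0440 FPKM in WT VP. In the MYC mouse it was 20.1 FPKM in AP, 63.1 FPKM in DLP and only 2.24 FPKM in VP. All 3 MYC libraries lay above all 3 WT libraries, as the choice of the gene required, and within the MYC mouse the DLP was far above the VP. In estimated reads the WT values were 1, 0 and 5, and the MYC values 2395, 5239 and 221. The log2 ratio, log2 of (FPKM + 1) in MYC over (FPKM + 1) in WT, reached 4.38 in AP and 6.002 in DLP but 1.64 in VP.

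Dmbt1 (chr7:131032057-131121628), on the same chromosome 44.3 Mb away, was listed at 0 in WT AP and was 0.00700 FPKM in WT DLP and 0.0400 in WT VP. In the MYC lobes it was 17.7, 54.2 and 24.7 FPKM in AP, DLP and VP. It was thus strongly present in all 3 lobes, with the smallest spread between lobes of the 6 genes. Its log2 ratios were 4.23, 5.78 and 4.63.

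The 3 Khdc1 genes lie side by side within 36.7 kb of chromosome 1, separated by 16.1 and 13.8 kb. Khdc1a (chr1:21349677-21352199) was listed at 0 in WT AP and WT VP and was 0.0182 FPKM in WT DLP, against 6.73, 37.6 and 4.29 FPKM in MYC AP, DLP and VP. Khdc1c (chr1:21368331-21369743) was listed at 0 in WT AP and WT VP and was 0.0166 FPKM in WT DLP, against 7.199, 40.8 and 4.13 FPKM in the MYC lobes. The levels of the pair ran together, and the ratio of Khdc1c to Khdc1a was 1.07, 1.08 and 0.964 over the same 3 lobes, a match that their shared sequence bears on.

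Khdc1b (chr1:21383556-21386384), the copy with few shared stretches, was listed at 0 in all 3 WT libraries and was 0.910, 6.08 and 1.18 FPKM in MYC AP, DLP and VP. Its level relative to Khdc1a was 0.135, 0.162 and 0.275 in the same libraries. Khdc1b was therefore the lowest of the 6 genes in every MYC lobe, and it was again highest in the DLP. The log2 ratios in AP, DLP and VP were 2.95, 5.25 and 2.40 for Khdc1a, 3.04, 5.36 and 2.36 for Khdc1c, and 0.93, 2.82 and 1.12 for Khdc1b.

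Gh (chr11:106300261-106303703) was listed at 0 in all 3 WT libraries. In the MYC mouse it was 4.69 FPKM in AP, 19.8 in DLP and 57.2 in VP, from 154, 456 and 1559 estimated reads. Growth hormone was the only one of the 6 that was highest in the VP, where it was the most abundant of them. Its log2 ratios were 2.51, 4.38 and 5.86.

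**Figure D1:**
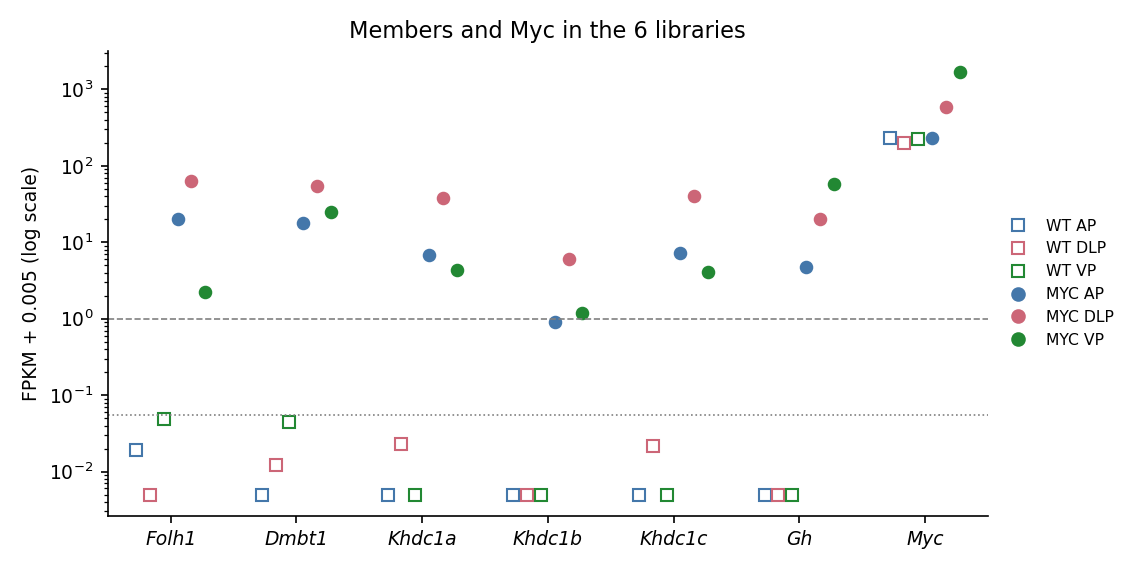
FPKM of the 6 genes and of Myc in each of the 6 libraries, on a log axis with 0.005 FPKM added so that a listed 0 can be drawn. Open squares are WT, filled circles MYC, and colours mark the lobes; the dotted line is at 0.05 FPKM and the dashed line at 1 FPKM. Every WT value of the 6 genes lies below the dotted line, and of the MYC values only that of Khdc1b in AP (0.910 FPKM) lies below the dashed line.

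With near 0 set at 0.05 FPKM or less in each WT library and expressed at 1 FPKM or more in each MYC library, 6 genes of the table (0.0241%) had the pattern. They were 5 of the 6 listed genes and Snord32a. Khdc1b missed it by its 0.910 FPKM in MYC AP, and on the other side of the limits Folh1 came closest to failing, with VP levels of 0.0440 FPKM in WT and 2.24 FPKM in MYC. Snord32a (chr7:45127383-45127463), a small nucleolar RNA within an intron of a ribosomal protein gene, was listed at 0 in the WT libraries and was 229, 330 and 140 FPKM in MYC AP, DLP and VP. A transcript this short is poorly measured in a polyA library. Among genes just outside the limits was Oas3, an interferon-induced antiviral enzyme with 1.27, 3.74 and 1.105 FPKM in the MYC lobes. Hmmr, Bub1b, Kif18b, Melk and Cenpf, which act in mitosis, lay there too.

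**Figure D2:**
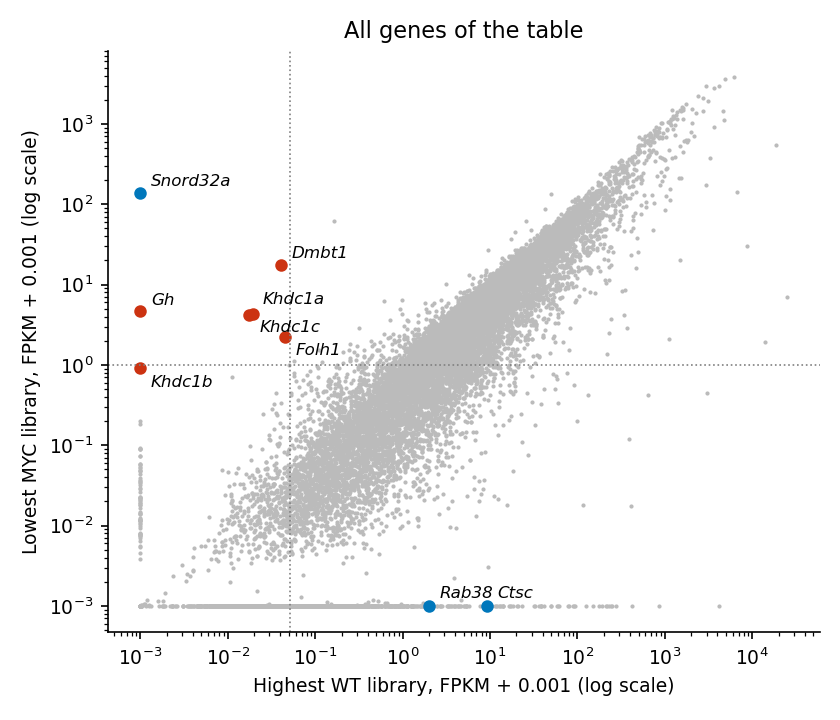
Each point is a gene of the table, placed by its highest WT value and its lowest MYC value, both in FPKM on log axes with 0.001 FPKM added. Dotted lines mark 0.05 FPKM (WT) and 1 FPKM (MYC), red points are the 6 genes and blue points Snord32a, Ctsc and Rab38. The upper left corner holds 6 genes, and Khdc1b lies just under the MYC limit.

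The comparison covered 12361 genes whose mean over the libraries reached 1 FPKM, and all 6 belong to them. Of these, 2.05% were at least 2-fold higher in MYC in AP, 6.46% in DLP and 6.88% in VP, and 0.599%, 3.39% and 5.95% were at least 2-fold lower. In all 3 lobes, 51 genes (0.413%) were at least 2-fold higher. Of the 18 log2 ratios of the 6 genes, 17 passed 2-fold, the exception being Khdc1b in AP. This count follows from how the genes were picked. In AP, DLP and VP their median log2 ratio was 2.99, 5.30 and 2.38, beside 0.13, 0.03 and 0.04 over all genes compared.

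The lobe order was set beside that of Myc. The table holds 1 row for Myc (chr15:61985341-61990361), none of its own for the human transgene, and does not separate mouse from human reads. In AP, DLP and VP, Myc was 230.0, 200.6 and 226.4 FPKM in the WT mouse and 230.9, 586.1 and 1696 FPKM in the MYC mouse. In the MYC mouse it was 0.867 FPKM above WT in AP, 385.5 in DLP and 1469 in VP. The listed Myc level was thus almost the same in both animals in AP.

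Gh had the same order as Myc, VP over DLP over AP. Gh in MYC VP was 2.88 times its level in MYC DLP (95% counting interval 2.59 to 3.20), and Myc 2.89 times (2.86 to 2.93). Between DLP and AP the ratio was 4.23 for Gh (3.53 to 5.12) and 2.54 for Myc (2.49 to 2.58). The intervals of Gh and of the listed Myc level therefore overlapped from DLP to VP and parted from AP to DLP. The Myc level above WT, in place of the listed one, was 3.81 times as high in VP as in DLP, outside the interval of Gh.

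The other 5 genes all peaked in the DLP of the MYC mouse, while the Myc level peaked in its VP. Of all genes compared, 28.1% were highest in MYC DLP. Among the 51 genes at least 2-fold higher in all 3 lobes, which include all of the 6 but Khdc1b, 66.7% were. A peak in the DLP was thus also common among genes that were higher throughout. The DLP exceeded both other MYC lobes at least 2 times for each of the 5 genes that peaked there, as it did for 3.20% of the genes compared.

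Folh1 had the steepest profile. Its DLP level was 3.13 times that of AP (2.98 to 3.29) and 28.1 times that of VP (24.6 to 32.3), and its AP level was 8.97 times that of VP (7.82 to 10.4). Folh1 was lowest in the lobe with the most Myc. The order DLP over AP over VP was shared by Khdc1a and Khdc1c and by 17.3% of all genes compared.

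Khdc1a in MYC DLP was 5.59 times its AP level (5.11 to 6.12) and 8.78 times its VP level (7.79 to 9.89). Khdc1c gave 5.66 times (5.18 to 6.19) and 9.86 times (8.75 to 11.2). AP exceeded VP by a ratio of 1.57 for Khdc1a (1.37 to 1.80) and 1.74 for Khdc1c (1.52 to 2.01), so both were lowest in VP. Khdc1b in MYC DLP was 6.69 times its AP level (5.35 to 8.50) and 5.16 times its VP level (4.15 to 6.50). Its VP and AP levels were not distinguishable by counting error, with a ratio of 1.30 (0.967 to 1.74), so Khdc1b shares the peak of its neighbours and leaves the order of the lower lobes undecided.

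Dmbt1 in MYC DLP was 3.06 times its AP level (2.96 to 3.16) and 2.19 times its VP level (2.12 to 2.26), and VP was 1.40 times AP (1.34 to 1.45). The order DLP over VP over AP was that of 10.8% of all genes compared. These intervals cover the counting of reads in single libraries and not the difference between mice.

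**Figure D3:**
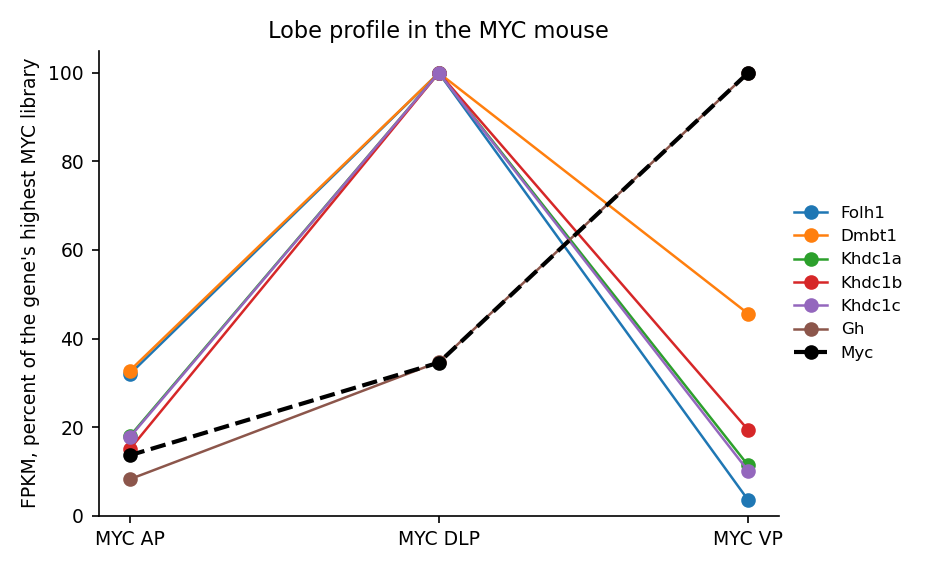
FPKM of each gene in MYC AP, DLP and VP as a percent of the gene's highest MYC library, with Myc as the dashed black line. All but Gh peak in the DLP, with VP levels from 3.56% (Folh1) to 45.6% (Dmbt1) of the peak, while Gh and Myc peak in the VP and stand at 34.7% and 34.6% in the DLP and at 8.21% and 13.6% in the AP.

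Other genes with the same course over the 6 libraries were found by the correlation of log2(FPKM + 1), which rests on 6 points from 2 mice and is given as a description. These libraries include the contrast by which the 6 genes were picked. Closest to Folh1 were Ido1 (r = 0.996), which degrades tryptophan, and Ldhd (0.995), a mitochondrial D-lactate dehydrogenase. Ido1 was 0.301, 0.261 and 0.0774 FPKM in the WT lobes (AP, DLP and VP) and 7.96, 14.0 and 1.33 FPKM in the MYC lobes. Closest to Khdc1a and Khdc1c, apart from each other, were Oas3 (0.999 and 0.998) and Rsph9 (0.994 and 0.993), a part of the ciliary radial spoke. Closest to Khdc1b were Dhx58 (0.995), an RNA sensor of the RIG-I family, Klrd1 (0.992), a receptor of natural killer cells, and Eno1b (0.984). Dhx58 was 0.833, 0.701 and 0.875 FPKM in WT and 1.97, 5.25 and 2.05 FPKM in MYC.

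Gh had other companions, Shcbp1 (0.998), Wdhd1 (0.997) and Pbk (0.996), all of which are known from dividing cells. Pbk, a mitotic kinase, was 0.109 and 0.0882 FPKM in WT AP and DLP, listed at 0 in WT VP, and reached 1.52, 4.41 and 6.17 FPKM in the MYC lobes. The closest to Dmbt1 were Pnpt1 (0.994), Cep95 (0.994) and Snhg5 (0.990). They moved far less than Dmbt1, Pnpt1 from between 7.12 and 7.94 FPKM in WT to between 12.8 and 16.0 in MYC.

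The surroundings of Folh1 on chromosome 7 were examined next. The mirror image of the pattern, near 0 in every MYC library and expressed in every WT library, was met by 2 genes of the table (0.00803%), Ctsc and Rab38, and both lie on chromosome 7 on the same side of Folh1. Ctsc (chr7:88278024-88315861), which encodes cathepsin C, the lysosomal protease that activates granule serine proteases, starts 1.502 Mb beyond the end of Folh1. It was 9.13, 5.67 and 2.86 FPKM in WT AP, DLP and VP, listed at 0 in MYC AP and at 0.00751 and 0.00636 FPKM in MYC DLP and VP. In estimated reads Ctsc had 329, 380 and 202 in the WT libraries and rounded to 0 in each MYC library, with log2 ratios of -3.34, -2.73 and -1.94.

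Rab38 (chr7:88430273-88491572), a small GTPase of lysosome-related organelles, lies 0.114 Mb further on. It was 1.11, 1.56 and 2.02 FPKM in WT AP, DLP and VP and was listed at 0 in all 3 MYC libraries, with log2 ratios of -1.08, -1.36 and -1.60. Both genes of this kind are thus neighbours. That their WT and MYC libraries do not overlap follows from the mirror pattern by which they were found. Their nearness to Folh1 was noticed after the values were seen.

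Within 2.5 Mb on either side of Folh1 the table lists 44 genes, of which 32, many of them olfactory and vomeronasal receptor genes, were at 0 in all 6 libraries and 7 reached 1 FPKM in some library. Of those 7, Folh1 was the only one that was at least 2-fold higher in MYC, and Ctsc and Rab38 the only ones at least 2-fold lower. Nox4, the NADPH oxidase gene between Folh1 and Ctsc, was 0.718, 0.263 and 0.267 FPKM in the WT lobes (AP, DLP and VP) and 1.27, 0.495 and 0.0754 FPKM in MYC. Grm5, which lies between Nox4 and Ctsc, was listed at 0 throughout. Tmem135, the first gene beyond Rab38 that reached 1 FPKM, 0.648 Mb away, was 8.01, 10.2 and 10.8 FPKM in WT and 10.8, 11.005 and 11.3 FPKM in MYC, and Fah and Zfand6 on the other side of Folh1 had log2 ratios between -0.80 and 0.27.

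**Figure D4:**
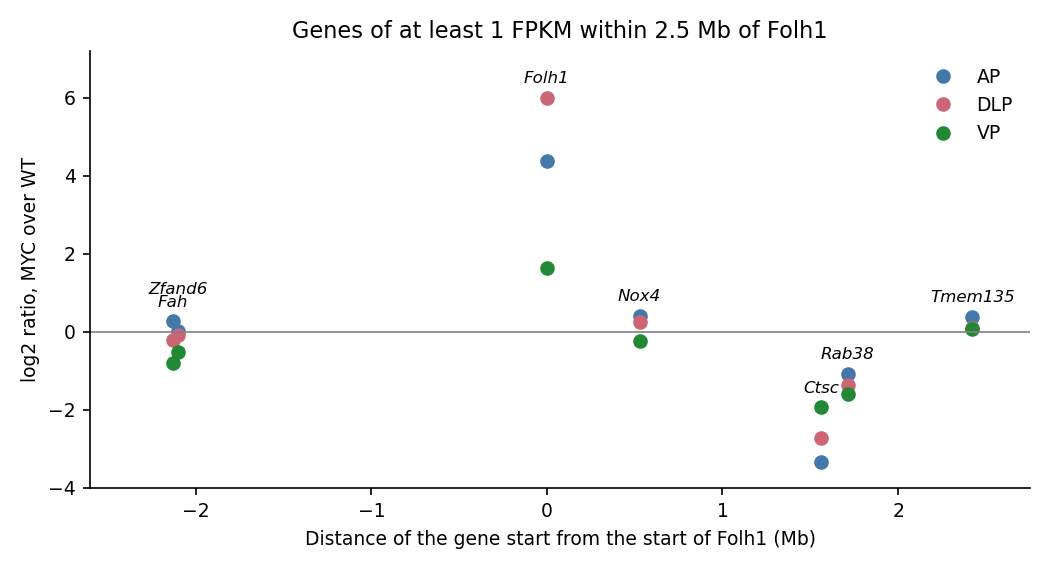
log2 ratio of MYC over WT in each lobe (vertical axis, 1 point per lobe) against the distance of a gene's start from that of Folh1 in Mb, for the 7 genes within 2.5 Mb that reached 1 FPKM. Folh1 stands at 1.64 to 6.002, Ctsc and Rab38 at -3.34 to -1.08, and the other genes between -0.80 and 0.40.

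The 5 listed genes on either side of each of the 6 were read next. None of those around Folh1 was at least 2-fold higher in MYC. Of the 10 around Dmbt1, Tacc2, a centrosomal protein gene, was 41.8 FPKM in MYC DLP against 18.0 in WT DLP (log2 ratio 1.17), and Htra1, a secreted serine protease, had log2 ratios of 0.88, 0.75 and 0.11 in AP, DLP and VP. Plekha1, between them, had values between -0.21 and 0.32.

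Outside the Khdc1 cluster, Gsta3, a glutathione transferase 84.1 kb before Khdc1a, was lower in MYC in DLP and VP, at 6.04 FPKM in the DLP against 34.5 in WT and at 1.34 FPKM in the VP against 17.8 in WT, and was 20.3 FPKM in MYC AP against 16.0 in WT. Kcnq5, a potassium channel gene 12.0 kb after Khdc1b, was 0.207 FPKM at most. The high values of the cluster thus stopped at its own 3 genes on both sides. Tmem14a had log2 ratios of -1.06 in DLP and -1.34 in VP, and Tram2 of -1.05 in VP.

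Around Gh, 7 of 10 neighbours reached 1 FPKM. Smarcd2, a subunit of the SWI/SNF chromatin remodeller 27.3 kb from Gh, was 13.6, 21.1 and 27.1 FPKM in the WT lobes (AP, DLP and VP) and 23.6, 30.7 and 78.6 FPKM in MYC, with a log2 ratio of 1.505 in VP. Tcam1, the gene next to Gh on one side, was 0.0788 FPKM at most. Cd79b, a B cell receptor subunit 7.64 kb away on the other side, was 0.506, 1.12 and 0.190 FPKM in MYC AP, DLP and VP, an order that differs from that of Gh. Psmc5, Ftsj3, Ddx42, Icam2 and Ern1 had log2 ratios between -0.53 and 0.81.

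Promoter sequence, from 250 bases before to 50 bases after the start, was found in RefSeq (GRCm38.p6) for 2 of the 6, Folh1 and Khdc1b. A search on both strands covered 5 motifs: the E-box CACGTG, to which MYC and its partner MAX bind, the androgen receptor half-site TGTTCT, the GC box GGGCGG, the forkhead site TGTTTAC and the TATA box TATAAA. The Folh1 window (chr7:86775815-86776114, minus strand) is built on a transcript start that lies inside the gene's span given above, so that most of it is not upstream of the outermost start. It held 1 GC box and none of the other motifs.

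The Khdc1b window (chr1:21383306-21383605, plus strand) held none of the 5. Of 32851 promoters of the same length, 7.15% held CACGTG, 19.0% TGTTCT, 35.7% GGGCGG, 3.65% TGTTTAC and 13.6% TATAAA. The Folh1 and Khdc1b windows were poorer in G and C than the median promoter, with 42% and 46.3% against 52.7%. These are matches of letters in short windows and say nothing of binding.

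Genes related to the 6 in family or function did not share the pattern. Of the Folh1 family and the transferrin receptors, 3 others were compared and none was at least 2-fold higher in any lobe. Tfrc, the transferrin receptor, had log2 ratios of -0.40, 0.02 and -0.11 in AP, DLP and VP, and Naaladl2 of 0.28, -0.60 and -0.37. Naalad2, a close relative with the same peptidase activity, fell short of WT in the DLP, with 0.973 against 3.02 FPKM (log2 ratio -1.03). Of 8 compared genes of folate and glutamate handling, Slc19a1, the reduced folate carrier, was alone past 2-fold, with 11.7 FPKM in MYC VP against 3.12 in WT. Fpgs and Ggh, which add glutamate to folates and remove it, and the glutamine transporter Slc1a5 had log2 ratios between -0.79 and 0.35.

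Of 7 other SRCR domain genes compared, 2 were at least 2-fold higher in AP, 2 in DLP and 1 in VP, and 0, 1 and 2 were lower. Over all genes compared, 2.05%, 6.46% and 6.88% were higher and 0.599%, 3.39% and 5.95% lower. Scara5, a scavenger receptor, had log2 ratios of 0.02, -1.49 and -2.49 in AP, DLP and VP, and Ssc5d of 0.63, -0.38 and -1.31. Lgals3bp, a secreted galectin-binding glycoprotein, was at least 2-fold higher in all 3 lobes. It was 16.0, 16.1 and 19.1 FPKM in the WT lobes (AP, DLP and VP) and 44.6, 70.7 and 78.5 FPKM in MYC, with log2 ratios of 1.42, 2.07 and 1.98. The lists were put together with results of these data known.

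A list of genes of mucosal defence, the setting in which Dmbt1 is known, was counted in the same way. Of 9 compared, 2 were at least 2-fold higher in AP, 7 in DLP and 1 in VP, beside 2.05%, 6.46% and 6.88% of all genes. In the same lobes 0, 2 and 3 were lower, beside 0.599%, 3.39% and 5.95%. Among the MYC libraries 7 of the 9 were highest in the DLP. Reg3g and Tff3 were under 1 FPKM in every library but MYC DLP. They reached the mean for comparison only through it, so their place in the DLP counts was fixed by that filter. Hematopoietic markers were higher in the same lobe, with 11 of 11 compared past 2-fold, and their part in this list, which holds Lyz2, Lcn2 and Ltf, was not tested. Ltf, the iron-binding antimicrobial lactoferrin, reached 49.8 FPKM in MYC DLP against 0.334 in the WT lobe, and 2.22 and 2.01 FPKM in MYC AP and VP. Reg3g, an antibacterial lectin, reached 8.88 FPKM in MYC DLP against 0.187 in the WT lobe, and 0.387 and 0.129 in MYC AP and VP. Tff3, a trefoil peptide of mucus, reached 8.81 against 0.422 FPKM.

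Sftpd, surfactant protein D, a partner that Dmbt1 is known to bind, had a mean too low to be compared. It was 0.0349 FPKM in WT AP and listed at 0 in WT DLP and VP, and was 0.249, 4.95 and 0.326 FPKM in MYC AP, DLP and VP. Lgals3, another partner, was 253 FPKM in MYC DLP against 75.1 in WT. Agr2 and Fcgbp, genes of mucus secretion, were lower in the DLP of the MYC mouse, Agr2 from 469 to 64.3 FPKM and Fcgbp from 56.2 to 14.6. Dmbt1 itself was also high outside the DLP, at 17.7 FPKM in MYC AP and 24.7 in MYC VP.

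Genes of the growth hormone axis were mostly unlike Gh. Of 11 compared, 0 were at least 2-fold higher in AP, 3 in DLP and 1 in VP, beside 2.05%, 6.46% and 6.88% of all genes. At least 2-fold lower were 0, 2 and 2, beside 0.599%, 3.39% and 5.95%. Sst, which encodes somatostatin, the inhibitor of growth hormone release, was 0.147 FPKM in MYC DLP against 4.05 in WT (log2 ratio -2.14). Socs2, a feedback inhibitor that growth hormone is known to induce through STAT5, was 20.4, 16.2 and 7.31 FPKM in the WT lobes (AP, DLP and VP) and 26.7, 51.3 and 40.7 FPKM in MYC, with log2 ratios of 0.37, 1.60 and 2.33. Its ratios thus had the lobe order of the Gh levels, but its own level in the MYC mouse was highest in the DLP, unlike that of Gh. Cish, a related inhibitor, had -0.07, 1.31 and 0.39. Igfals, the carrier subunit of circulating IGF, was 5.31 FPKM in MYC DLP against 0.167 in WT. It was under 1 FPKM in every other library and was compared only through MYC DLP, so its place in the DLP count was fixed by that filter.

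The receptor Ghr had a log2 ratio of 0.03 in AP and was lower in DLP and VP, at 7.65 FPKM in MYC DLP against 17.3 in WT and at 4.69 FPKM in MYC VP against 13.7 in WT (log2 ratios -1.08 and -1.36). Igf1, a growth factor induced by growth hormone in liver, was 1.69 FPKM in MYC VP against 5.88 in WT, and 23.7 FPKM in MYC AP against 11.6 in WT. The other hormone genes of the pituitary were absent or low. All 11 others of a list of pituitary hormones and factors were under 1 FPKM in every library and 4 of them, Prl included, were at 0 throughout.

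**Figure D5:**
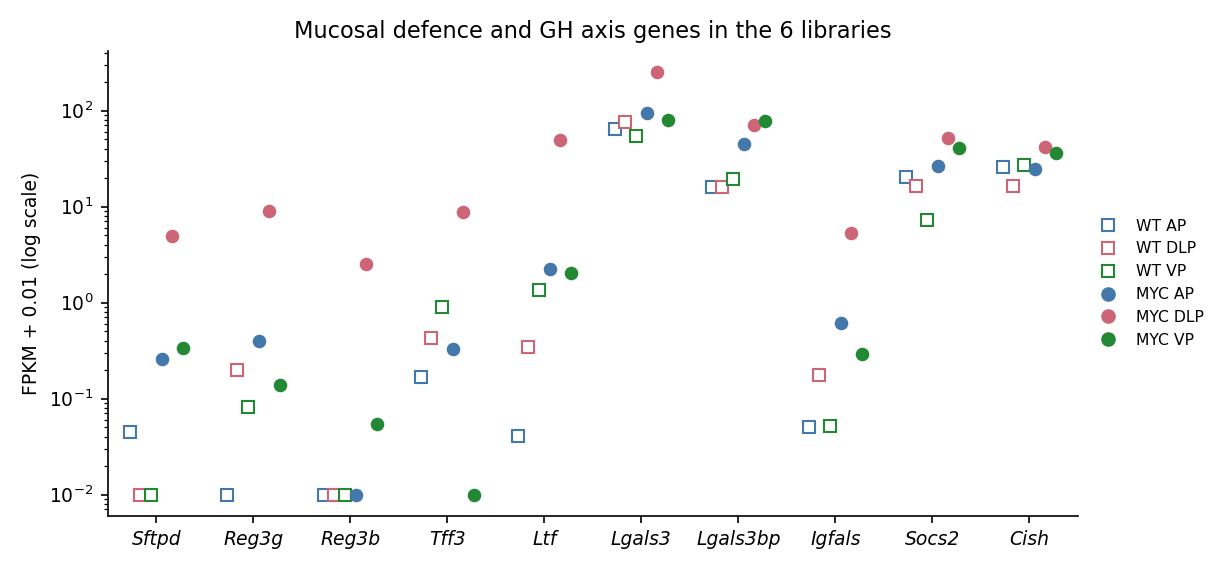
FPKM of 10 genes of mucosal defence, its partners and the growth hormone axis in the 6 libraries, on a log axis with 0.01 FPKM added; open squares are WT, filled circles MYC, colours mark the lobes. Sftpd, Reg3g, Reg3b, Tff3, Ltf and Igfals are highest in MYC DLP by a wide margin, and Lgals3bp is higher in each MYC lobe than in any WT lobe.

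The oocyte setting of the Khdc1 genes was not seen. All 20 genes of an oocyte and cleavage-embryo list were under 1 FPKM in every library and 9 were at 0 in all. Of the other genes of the subcortical maternal complex, Tle6 alone was compared, with 2.14 FPKM in MYC DLP against 1.60 in WT.

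Markers of the cells that a dissected lobe can hold moved with some of these values. Krt8 and Krt18, the luminal keratins, were 388 FPKM or more in each library. The summed level of 16 hematopoietic markers was 91.5, 58.3 and 40.0 FPKM in the WT lobes (AP, DLP and VP) and 79.3, 204 and 100 FPKM in MYC, with all 11 compared markers at least 2-fold higher in DLP, 6 in VP and 0 in AP, and all 11 highest in the DLP among the MYC libraries. Ms4a1, a B cell marker, was at 0 in the WT libraries and 1.06 FPKM in MYC DLP. This is the lobe in which 5 of the 6 genes peaked, and the part of these cells in that peak was not tested.

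The summed level of 9 seminal vesicle genes was 524, 11.3 and 0.00862 FPKM in the AP, DLP and VP of the MYC mouse and at most 0.201 FPKM in WT. In MYC VP each of them but Pax2 was listed at 0. For the AP values of the 6 genes the part of seminal vesicle tissue was not tested. The 8 basal markers summed to 2266 FPKM in MYC DLP against 1631 in WT. In AP their sum was 1319 FPKM in MYC against 2409 in WT, and in VP 582 against 761. At least 2-fold higher were 1, 3 and 1 in AP, DLP and VP, and 2, 0 and 1 were lower. Among the MYC libraries 6 of the 8 were highest in the DLP, beside 28.1% of all genes compared. The 6 luminal progenitor markers summed to 495, 567 and 307 FPKM in WT AP, DLP and VP and to 716, 1197 and 329 FPKM in MYC. In the MYC mouse 5 of them were highest in the DLP. Ly6d, one of these markers, was at least 2-fold higher in all 3 lobes, with log2 ratios of 1.19, 3.21 and 2.14. All 8 genes of a kidney list were under 1 FPKM in every library. All but Umod mark the proximal tubule, a tissue rich in Folh1 in mice.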

How the data were processed

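The deposited table holds FPKM, which the authors made from single-end 75-base reads of stranded polyA libraries. Their processing notes name bcl2fastq 2.18, STAR, Cufflinks and the build mm10. The study's methods call the Cufflinks output counts, but the values are not whole numbers, so no count model was run. With 1 library per lobe and genotype no p-value was computed. The log2 ratio used a pseudocount of 1 FPKM and the values as deposited, over 12361 genes whose mean reached 1 FPKM, and a difference was called at 2-fold. FPKM sums were 374085 to 483143 per library.

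Reads per library, from the steps between low FPKM values, were 25.4 M in WT AP, the shallowest, and 34.7 M to 49.8 M in the other 5. Estimated reads were FPKM times depth times the mean GENCODE M1 transcript length less 200 bases, the fragment length assumed for single-end reads. Only 54.7% to 63.3% of low values lay within 0.05 of a whole read. Estimated reads and the exact binomial 95% intervals of ratios made from them are therefore approximate and cover counting error only. Shared 75-base stretches were counted over 55443 protein-coding transcripts of GENCODE M1. Coordinates and promoters are from RefSeq GRCm38.p6, in which 24344 of the 24908 symbols were found.

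The genes named were chosen from those that had the pattern, were the 3 best correlated with one of the 6, were within 5 listed genes on either side with at least 1 FPKM, were among the 3 highest of a list or were 2-fold changed alike in all 3 lobes; others were named after their values were seen. Not every gene that these rules admit is named, and one is not reported here. The 6 genes and all lists were chosen with earlier results of these data known. Alternatives were other limits, pseudocounts, scalings and sets of lobes. The calculations were tested on simulated data. Python 3.11.15 with numpy 2.4.6, pandas 2.3.3, scipy 1.17.1, Biopython 1.88 and matplotlib 3.10.9 was used.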

Additional observations from a re-analysis of the deposited data

Results flagged for a closer look

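Of the list genes, 4 were at least 2-fold higher in MYC in AP and at least 2-fold lower in VP. The difference of the log2 ratio, VP minus AP, was -5.37 for Pigr, the receptor that carries IgA across epithelia, -4.22 for Krt4, a keratin of luminal progenitors, -2.77 for Trp63, the basal transcription factor, and -5.77 for Upk1a, a urothelial plaque protein. Pigr was 2.17 FPKM in WT AP and 8.51 in MYC AP, but 349 in WT VP and 24.4 in MYC VP. Trp63 was 5.79 and 19.2 FPKM in WT and MYC AP, and 3.17 and 0.814 in WT and MYC VP. These differences were not tested, since each lobe of each genotype is 1 library.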

How the results depend on the processing

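The 6 genes were above WT in all 90 recomputed values (18 log2 ratios, 5 alternatives each), 87 of them at least 2-fold. That they stayed above WT follows from how they were picked. The number of the 6 genes highest in MYC DLP was 5 under each of 4 scalings. The number of genes with the pattern, 6 with the limits used, was 2 when expressed meant 5 FPKM, 14 over DLP and VP only and, chosen after seeing the data, 18 over AP and DLP only. For the mirror pattern these were 0, 7 and 4 in place of 2; Ctsc and Rab38 were in every set that held any gene. Of the 6 genes, 5 met the pattern, 3 did with near 0 at 0.02 FPKM or at 3 estimated reads at most, and 1 with 5 FPKM. The median log2 ratios of 2.99, 5.30 and 2.38 (AP, DLP, VP) became 6.14, 8.39 and 5.43 with a pseudocount of 0.1, 3.12, 5.22 and 2.22 with equal sums, and 3.79, 5.71 and 1.88 with scaling to Krt8 and Krt18. The DLP median was 5.17 with equal sums without the 20 highest genes and 5.18 with size factors from medians of ratios. Scaling to Krt8 and Krt18 moved the median of all genes compared to 0.30, -0.17 and 0.24, and equal sums moved that of VP to -0.15. Of all genes, 254 were at least 2-fold higher in MYC in AP, but 488 with scaling to Krt8 and Krt18 and 523 with the pseudocount of 0.1, and in VP 850 became 555 with equal sums and 532 without the 20 highest genes. No paired analysis was possible because the groups compared share a single replicate number; the log2 ratios are taken within a lobe, and the lobes of a genotype come from 1 mouse and are not replicates. Hhip, listed with the SRCR domain genes, was left out of their counts after seeing the data because it has no such domain, and with it 8 genes were compared and 0, 2 and 3 were lower. WT AP has the fewest reads, and 1 read there is worth 0.0594 FPKM for Gh, so its listed 0 is the least precise.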

Other observations

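The 51 genes at least 2-fold higher in MYC in all 3 lobes, which include all of the 6 but Khdc1b, were spread almost evenly over 3 lobe orders in the MYC mouse. The order DLP over VP over AP held for 18 of them, VP over DLP over AP for 17 and DLP over AP over VP for 16, and none was highest in AP. Over all genes compared, AP over DLP over VP was the order of 27.7%.

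The urothelial and stromal lists, which no result above turns on, moved by lobe. The 6 urothelial markers summed to 21.5, 289 and 502 FPKM in WT AP, DLP and VP and to 55.2, 102 and 31.9 FPKM in MYC. Upk1a made up most of this sum in WT DLP and VP, at 268 and 493 FPKM, and the list's median log2 ratio in DLP was 0.89, with Upk1b at 37.6 FPKM in MYC DLP against 19.9 in WT. The 10 fibroblast and matrix markers summed to 1393, 1491 and 768 FPKM in WT and to 1761, 1012 and 287 FPKM in MYC, with 5 at least 2-fold higher in AP, 3 higher and 2 lower in DLP and 5 lower in VP. The lower sum in DLP came with Dcn, at 454 FPKM in MYC against 1155 in WT, while the list's median log2 ratio there was 0.29. Endothelial markers were near level, at 229, 168 and 37.1 FPKM in WT and 246, 188 and 38.7 FPKM in MYC, with 0 of 10 past 2-fold in any lobe.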
